A study of Rattus norvegicus with 6 samples.

Results

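Aquaporins are membrane channels for water, and some also pass glycerol. The vasopressin V2 receptor (Avpr2) tells the collecting duct of the kidney how much water to retain. Their transcripts were followed in kidneys of Dahl S rats and of congenic rats. The members are the probe sets that the platform annotation assigns to Aqp1, Aqp2, Aqp3, Aqp4, Aqp6, Aqp7, Aqp11 or Avpr2. They number 12 of the 31099 probe sets on the Affymetrix Rat Genome 230 2.0 array and cover 8 genes. A probe set is a group of short probes read out as 1 signal. The study asked which kidney transcripts differ between a salt-sensitive strain and a congenic strain in which it was narrowing a blood pressure locus. The control group was the Dahl salt sensitive (S) rat, and the other group was a congenic rat on the Dahl S background. By the labelled name of the strain, it carries a chromosome 9 segment of another rat strain, named R. All rats were males born on 1 day, weaned at 30 days, housed as pairs of 1 rat from each strain, given a 2% salt diet and studied at 53 days of age. Each group had 3 arrays, and each array was hybridised with kidney RNA pooled from 2 of the 6 rats of that strain. Every rat ate the salt diet, so no group shows these genes on a low-salt diet.

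In the kidney, vasopressin binds Avpr2 on the basolateral face of principal cells. The receptor acts through Gs, cyclic AMP and protein kinase A, which bring Aqp2 to the apical membrane and raise Aqp2 transcription. Water that enters through Aqp2 leaves the cell through Aqp3 and Aqp4 in the basolateral membrane. Upstream, Aqp1 carries water across the proximal tubule and the thin descending limb, Aqp7 carries water and glycerol in the straight proximal tubule, and Aqp11 lies inside proximal tubule cells. Aqp6 lies in vesicles of acid-secreting intercalated cells.

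The sequences below are those of the 2 channels with the largest differences between the strains (Aqp2 and Aqp3), of the receptor, and of Aqp6, whose start lies 20783 bases from that of Aqp2. They are RefSeq windows from 250 bases before to 50 bases after the start of the gene, in the build GRCr8, which is the genome of a BN rat and not of S, R or congenic rats. Capitals mark matches, on either strand, to the cyclic AMP response motif TGACG, the GATA motif GATAAG, the motif TGGAAA found in tonicity elements, the TATA-like TATAA or the GC box GGGCGG.
Aqp2, chr7:132590036-132590335 (+): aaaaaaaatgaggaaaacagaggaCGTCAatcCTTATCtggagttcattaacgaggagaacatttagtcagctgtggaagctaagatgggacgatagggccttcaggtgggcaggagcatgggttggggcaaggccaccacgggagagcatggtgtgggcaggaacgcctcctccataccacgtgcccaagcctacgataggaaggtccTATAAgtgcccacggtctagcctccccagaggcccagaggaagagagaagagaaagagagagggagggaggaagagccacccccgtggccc
Aqp3, chr5:61040634-61040933 (-): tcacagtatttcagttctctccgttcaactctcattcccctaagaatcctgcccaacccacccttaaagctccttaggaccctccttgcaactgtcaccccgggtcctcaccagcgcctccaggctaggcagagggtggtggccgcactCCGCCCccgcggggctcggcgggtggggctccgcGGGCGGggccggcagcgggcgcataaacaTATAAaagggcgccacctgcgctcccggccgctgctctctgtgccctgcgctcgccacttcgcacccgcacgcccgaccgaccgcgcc
Avpr2, chrX:156784889-156785188 (+): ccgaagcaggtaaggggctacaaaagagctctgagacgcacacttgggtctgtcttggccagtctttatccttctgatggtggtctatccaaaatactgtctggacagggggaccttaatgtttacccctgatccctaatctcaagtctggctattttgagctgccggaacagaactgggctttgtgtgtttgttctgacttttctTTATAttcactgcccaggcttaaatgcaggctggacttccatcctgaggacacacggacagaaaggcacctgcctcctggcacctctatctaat
Aqp6, chr7:132610819-132611118 (+): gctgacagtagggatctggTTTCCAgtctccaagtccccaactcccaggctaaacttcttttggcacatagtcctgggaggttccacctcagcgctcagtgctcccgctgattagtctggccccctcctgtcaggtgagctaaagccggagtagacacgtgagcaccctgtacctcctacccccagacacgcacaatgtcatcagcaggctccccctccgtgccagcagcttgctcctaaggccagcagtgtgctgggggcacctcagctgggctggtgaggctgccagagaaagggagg
The Aqp2 window held 1 match to TGACG, read on the reverse strand, 1 to GATAAG and 1 to TATAA. The Aqp3 window held 2 matches to GGGCGG and 1 to TATAA. The Avpr2 window held only a TATAA match and the Aqp6 window only a TGGAAA match. Of 33469 windows of this length, 21.2% held TGACG, 7.05% GATAAG, 22.7% TGGAAA, 26.2% TATAA and 33.1% GGGCGG. None of the searched motifs was shared by the windows of Aqp2 and Aqp3 except TATAA. Of the 8 genes, 7 had a window in the table, and Aqp7 had none. These matches are letters in a reference window, and binding was not measured.

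The clearest differences lay in the water channels of the principal cell. Aqp3 and Aqp2 had higher signals on every congenic array than on any S array, with ratios of the group means of 1.35 and 1.18 (3 arrays a group). Of all tested probe sets, 5.74% were likewise higher in congenic pools without overlap. Aqp4, the other basolateral channel, had a ratio of means of 1.16 with overlapping groups, and the receptor Avpr2 had nearly the same mean in both strains. The channels of the proximal tubule had smaller ratios. The probe sets of Aqp1 had ratios of means of 1.05 and 1.12 with overlapping groups, and those of Aqp7 and Aqp11 were 0.996 each. No member passed limma's test at an adjusted p under 0.05 (0 of 8 tested), and neither did any of the 18625 probe sets tested (0.0%).

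Of the 12 probe sets, 8 had a mean signal above the filter on dim probe sets, a mean signal of 25.6, and were tested. They represent 7 genes. Log2 fold changes are congenic over S, taken on log2(signal + 16), which understates changes of dim probe sets. The 4 others were the single Aqp6 probe set, 2 of the 3 for Aqp4 and 1 of the 2 for Avpr2. At an unadjusted p under 0.05, limma took 2 of the 8, Aqp2 and Aqp3, both higher in congenic pools, where it took 6.61% of all tested probe sets in either direction and 3.09% as higher. A plain test without moderation of the variances took 0 of the 8. The groups did not overlap for the same 2 probe sets, against 5.74% of all tested probe sets as higher in congenic pools. Of the 8, 6 had a positive log2 fold change, against 48.8% of all. The 6 include the 2 probe sets of Aqp1, and Avpr2 at 0.0043, which ran from -0.14 to 0.10 with 1 array left out. The median log2 fold change of the 8 was 0.12, and that of all tested probe sets -0.0034.

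**Figure D1:**
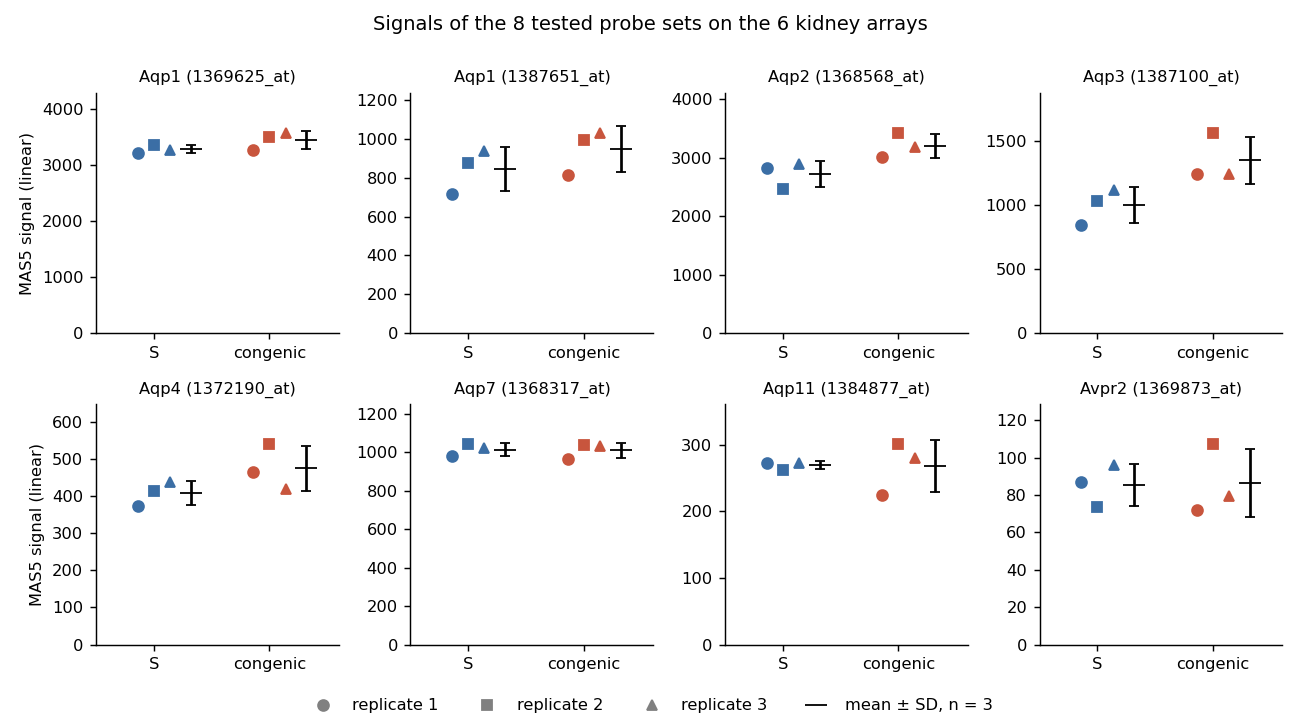
MAS5 signal (linear axis from 0) of each tested probe set on the 3 S arrays (blue) and the 3 congenic arrays (red), with replicate numbers as symbols and black bars for mean ± SD. Aqp2 and Aqp3 are the panels in which all congenic points lie above all S points.

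For the receptor, the first step of the pathway, no difference was detectable with 3 arrays a group. Avpr2 (probe set 1369873_at, chromosome X) measured 87.2, 73.3 and 95.8 in S pools 1 to 3 and 72.2, 107 and 79.7 in congenic pools 1 to 3. Congenic array 2 held the highest value and congenic array 1 the lowest, so the S values lay inside the congenic range. The log2 fold change was 0.0043 (SE 0.14, limma 95% interval -0.31 to 0.32), so modest differences in either direction lie inside it. A second Avpr2 probe set lay below the filter, with signals of 9.33 to 17.7. Averaging both probe sets gave a log2 fold change of -0.080.

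Aqp2 is the channel whose place in the apical membrane vasopressin controls. Its probe set (1368568_at, chromosome 7) measured 2817, 2466 and 2883 in the S pools and 3002, 3418 and 3175 in the congenic pools. The lowest congenic value stood above the highest S value by less than the spread among the S arrays. The log2 fold change was 0.23 (SE 0.070, limma 95% interval 0.077 to 0.39, unadjusted p = 0.00767, adjusted p = 0.710), and 195 of the tested probe sets had a smaller p. S array 2 was the lowest, and without it the log2 fold change was 0.16.

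Aqp3, a basolateral channel for water and glycerol, had the largest difference of the 8. Its probe set (1387100_at, chromosome 5) measured 845, 1035 and 1121 in the S pools and 1244, 1564 and 1242 in the congenic pools. S array 1 was the lowest and congenic array 2 the highest, and the other 4 arrays lay in 2 pairs between them. The log2 fold change was 0.43 (SE 0.11, limma 95% interval 0.18 to 0.68, unadjusted p = 0.00361, adjusted p = 0.710), and 88 tested probe sets, 0.472%, had a smaller p. It was 0.31 without S array 1 and 0.32 without congenic array 2.

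Aqp4 provides the other basolateral exit and is not moved by vasopressin in the way Aqp2 is. Its brightest probe set (1372190_at, chromosome 18) measured 373, 415 and 438 in the S pools and 465, 541 and 420 in the congenic pools. Congenic arrays 1 and 2 stood above all S arrays, and congenic array 3 fell among them. The log2 fold change was 0.21 (SE 0.097, limma 95% interval -0.0089 to 0.42, unadjusted p = 0.0585, adjusted p = 0.772), and 0.11 without congenic array 2. The other 2 probe sets lay below the filter, with signals of 5.25 to 25.4 and of 4.37 to 16.1, so the 3 probe sets of this gene read very different signals from the same RNA. With all 3 averaged the log2 fold change was 0.20.

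Of the channels of the proximal nephron, Aqp1 has 2 probe sets on the array. The brighter (1369625_at, chromosome 4) measured 3221, 3358 and 3275 in the S pools and 3273, 3502 and 3569 in the congenic pools. The dimmer (1387651_at) measured 716, 877 and 935 in the S pools and 811, 996 and 1029 in the congenic pools. Both read S array 1 as the lowest and congenic array 3 as the highest, and in both the groups overlapped because congenic array 1 lay among the S arrays. Their log2 fold changes were 0.069 (SE 0.049) and 0.16 (SE 0.11), with limma 95% intervals of -0.041 to 0.18 and -0.082 to 0.41. With 1 array left out they ran from 0.043 to 0.11 and from 0.053, without S array 1, to 0.27, without congenic array 1.

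Aqp7 and Aqp11, like Avpr2, had nearly equal means in the 2 strains. Aqp7 (1368317_at, chromosome 5) measured 977, 1041 and 1020 in the S pools and 963, 1035 and 1030 in the congenic pools, and the groups covered almost the same range. Its log2 fold change was -0.0053 (SE 0.057), and the limma 95% interval of -0.13 to 0.12 is among the narrowest of the 8. Aqp11 (1384877_at, chromosome 1) measured 273, 263 and 272 in the S pools and 225, 300.5 and 279 in the congenic pools. The S arrays of Aqp11 agreed closely (SD 5.75), whereas the congenic arrays lay on both sides of them (SD 38.9). Its log2 fold change was -0.014 (SE 0.10, limma 95% interval -0.24 to 0.21).

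Aqp6, the channel of the intercalated cell, lies next to Aqp2 on chromosome 7, with Aqp5 between them. Its probe set (1369298_at) measured 21.4, 16 and 15.4 in the S pools and 6.28, 15.2 and 14.8 in the congenic pools. All values were below the mean that the filter required, so it was not tested and its order between the strains was not read. The Aqp5 probe set was also dim, at 4.49 to 15.5. Of the 3 neighbours, therefore, Aqp2 alone gave a signal above the filter in these kidneys.

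Signals of different probe sets do not rank transcripts, because probes bind with different strength. As a position on the array only, the mean signals of Aqp2 and of the brighter Aqp1 probe set lay at percentiles 99 and 99.3 of all probe sets. Those of Aqp3, Aqp7 and the dimmer Aqp1 probe set lay at percentiles 96.5, 95.8 and 95.2. The brightest Aqp4 probe set lay at percentile 89.0, Aqp11 at 82.2 and Avpr2 at 61.8.

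**Figure D2:**
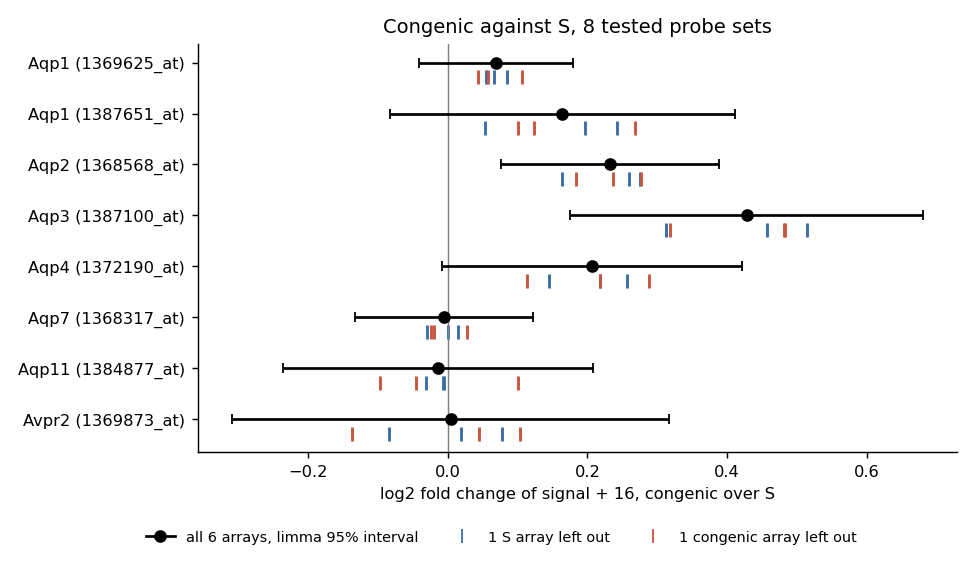
Log2 fold change of congenic over S, on the log2(signal + 16) scale, for the 8 tested probe sets. Black points and bars are the limma estimate from all 6 arrays with its 95% interval, and coloured ticks are the estimates with 1 S array (blue) or 1 congenic array (red) left out. The intervals of Aqp2 and Aqp3 lie above 0, from 0.077 and 0.18 upwards, and the other 6 cross it.

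Several members had their highest or lowest value on the same array. Congenic array 2 was the highest array for 5 of the 8 probe sets (Aqp2, Aqp3, Aqp4, Aqp11 and Avpr2), against 15.5% of all tested probe sets. S array 1 was the lowest for 4 of the 8 (both of Aqp1, Aqp3 and Aqp4), against 22.0% of all. Congenic array 1 was the lowest for 3 of the 8 (Aqp7, Aqp11 and Avpr2), against 17.9% of all. S array 1 also had the highest ratio of 3' to 5' actin signal, a measure of RNA integrity that goes up as RNA degrades. That ratio was 9.42, 8.13 and 6.54 in the S pools and 6.15, 6.64 and 7.17 in the congenic pools. Its part in the differences was not tested, and the values without S array 1 are 0.31 for Aqp3 and 0.26 for Aqp2. Spearman correlations between arrays over all probe sets were 0.969 to 0.977.

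A listed gene counts as measured where the array holds a probe set for it, whatever its signal. The 12 listed proximal tubule markers had summed signals of 38494 to 42831 in S and 39813 to 41012 in congenic pools. For intercalated cells, 9 of 11 markers summed to 7701 to 8410 and 7821 to 8476. Markers of other tissues set 2 of the 3 congenic arrays apart. Albumin (Alb) measured 6683 on congenic array 1 and 19.3 to 56.7 on the others, and the adrenal enzyme gene Cyp11a1 measured 1598 on congenic array 3 and 40.9 to 48.2 on the others. Without congenic array 1 the log2 fold changes of Aqp3 and Aqp2 were 0.48 and 0.28, and without congenic array 3 they were 0.48 and 0.24. With congenic array 2 alone against the 3 S arrays, an alternative chosen after the data were seen, they were 0.65 and 0.33, and only the S arrays gave the spread. Urothelium also makes Aqp3, and the summed signal of 7 urothelial markers of 8 listed was 1387 to 1450 in S and 1267 to 1383 in congenic pools, without overlap. Krt7 made up 63.7% of that sum, and of the 6 tested markers 1 had a positive and 5 a negative log2 fold change. Fat makes Aqp7, and 8 fat markers of 9 summed to 7571 to 7967 in S and 7555 to 8341 in congenic pools. Pck1, which the proximal tubule also makes, gave 77.5% of that sum. Without it the sums were 1553 to 2063 and 1264 to 1892. Of the 7 tested fat markers Pck1 had a positive log2 fold change and the other 6 a negative one, with a median of -0.18 over the 7 (0.051 without congenic array 1). The thin descending limb makes Aqp1, and 7 of 8 listed markers of the thin limb and inner medulla summed to 6560 to 6858 in S and 7059 to 7448 in congenic pools, without overlap. Fxyd2 gave 50.1% of that sum, and without it the sums were 3234 to 3344 and 3539 to 3866. The separation rested on Cryab, at 2196 to 2268 in S and 2585 to 2857 in congenic pools. Of the 7 markers 4 were higher and 3 lower. Endothelium makes Aqp1, and 8 of its 9 markers summed to 2343 to 2711 and 2280 to 2685. Red blood cells also carry Aqp1, and 5 of 7 markers summed to 7515 to 8494 and 8154 to 8901. Hbb gave 90.0% of that sum, and without it the sums were 719 to 960 and 682 to 999.9. Of its 4 tested markers 3 had a positive log2 fold change, and Ahsp was at -0.32. The fat, endothelial and red blood cell sums overlapped between the strains, with or without their leading gene (Emcn for endothelium). The part of these cell types in the values of the channels was not tested.

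The differences of Aqp2 and Aqp3 were set beside other genes of the cell that makes them. In whole kidney RNA, more principal cells and more RNA per cell cannot be told apart. Of 10 measured principal cell markers that are not members, 8 had a negative log2 fold change and 2 a positive one, with a median of -0.058 (-0.16 without S array 1, and -0.011 without S array 2). The sodium channel subunits Scnn1a, Scnn1b and Scnn1g had log2 fold changes of -0.035, -0.045 and 0.17, and without S array 1 of -0.21, -0.082 and 0.071. Hsd11b2, which shields the mineralocorticoid receptor from glucocorticoids, was at -0.070, and the potassium channel Kcnj1, which the thick ascending limb also makes, at 0.26. Without S array 1 they were at -0.17 and 0.15. The most negative of the 10 were the transcription factors Elf5 (-0.40) and Tfcp2l1 (-0.34). The summed signal of the 10 was 4803 to 5439 in S and 4529 to 5032 in congenic pools. Tfcp2l1 gave 25.3% of that sum, and without it the sums were 3275 to 4058 in S and 3516 to 3837 in congenic pools.

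Within each array, log2(signal + 16) of Aqp3 minus the mean over those 10 genes was 1.41, 1.49 and 1.62 in the S pools and 1.95, 2.14 and 1.93 in the congenic pools. Every congenic array stood above every S array, and the gap between the groups was wider than the range within either. The difference was 0.50. For Aqp2 the values were 3.13, 2.73 and 2.97 in the S pools and 3.21, 3.26 and 3.27 in the congenic pools. The congenic arrays lay close together (SD 0.032) and the S arrays further apart (SD 0.20), again without overlap. The difference was 0.30. An exact permutation test, two-sided, gave p = 0.1 for each, the smallest that 3 against 3 arrays can give, so these differences are a description. Measured the same way, Aqp4 had a difference of 0.28 without overlap and Avpr2 one of 0.075 with overlap. The mean of the 10 markers was lower by 0.070 in congenic pools, and that rested on Elf5 and Tfcp2l1: over the other 8 the difference of the mean was 0.0038. Against those 8, an alternative chosen after the data were seen, Aqp3 had a difference of 0.42 and Aqp4 one of 0.20, both without overlap. Aqp2 had one of 0.23, and there its groups overlapped, with 3.14, 2.67 and 2.91 in the S pools and 3.09, 3.14 and 3.17 in the congenic pools.

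**Figure D3:**
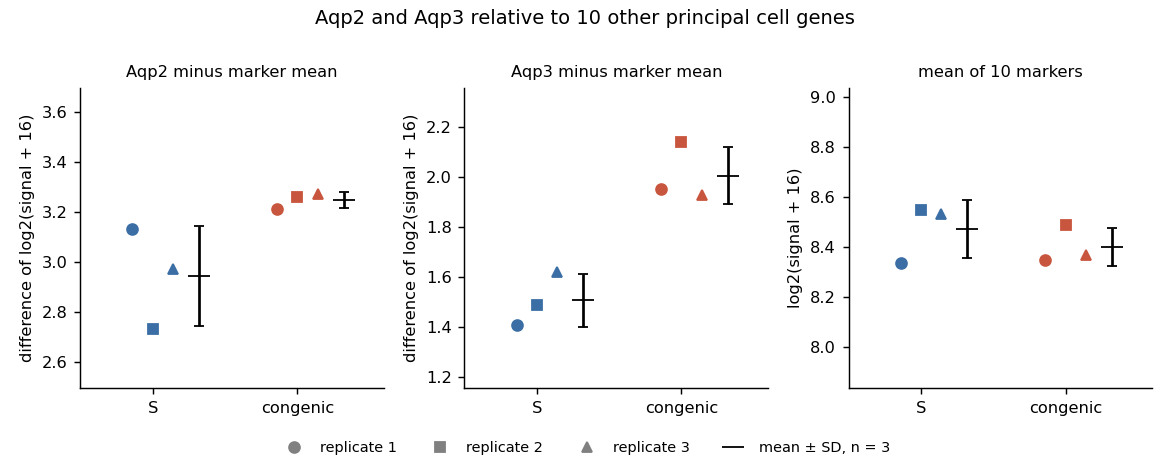
Left and middle, within-array difference between log2(signal + 16) of Aqp2 or Aqp3 and the mean over 10 other principal cell genes, and right, that mean itself, by array (S blue, congenic red, replicate numbers as symbols, black bars mean ± SD). All 3 panels span the same number of log2 units; the groups separate for both channels against these 10 genes and overlap for the marker mean.

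The steps between the receptor and its channel were followed with 5 lists of genes. Together with a list of other aquaporins they held 84 symbols, of which 80 were measured and 67 tested. Of the 67, 36 had a positive and 31 a negative log2 fold change, with a median of 0.0080, where all 10658 genes tested gave 47.4% positive and a median of -0.0068. None passed limma's adjusted threshold (0 of 67). At an unadjusted p under 0.05 there were 4 higher and 4 lower, where 2.96% and 3.67% of all genes were taken. The groups did not overlap for 1 gene as higher and 5 as lower in congenic pools. Over all tested probe sets 5.74% were higher without overlap. The share that was lower was not counted, so the 5 lower genes cannot be called many or few.

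Of 10 tested genes for receptors and cyclic AMP, 6 were higher and 4 lower, with a median of 0.025 (0.034 to 0.12 with 1 array left out). Pde3b, a phosphodiesterase that breaks down cyclic AMP, measured 57.0, 54.6 and 64.9 in the S pools and 89.0, 81.5 and 62.4 in the congenic pools. Congenic array 3 fell among the S arrays, and the log2 fold change was 0.32 (SE 0.13, limma adjusted p = 0.750). Gnas, the Gs subunit through which Avpr2 signals, was at -0.067 (SE 0.049, and -0.10 without congenic array 3) and Pde4b, another phosphodiesterase, at 0.13 (0.041 without S array 1, 0.20 without S array 3). Adcy6, the adenylyl cyclase most tied to Aqp2 in this segment, was at 0.042, and at -0.058 without S array 1. The hormone itself, Avp, is made in the hypothalamus, and its probe set lay below the filter here.

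Genes of protein kinase A and its anchoring proteins spanned the narrowest range of the 5 lists. Of 11 tested, 5 were higher and 6 lower, between -0.099 and 0.17, with a median of -0.032. Akap12 was at 0.17, and from 0.078 without S array 1 to 0.32 without S array 3. Akap1 was at 0.085 (0.048 without congenic array 2 and 0.13 without congenic array 3), and the catalytic subunit gene Prkaca at -0.099 (-0.063 without S array 3). None of the 11 had an unadjusted limma p under 0.05.

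Of 24 tested genes for Aqp2 trafficking and turnover, 13 were higher and 11 lower, with a median of 0.0034. Stub1, the ubiquitin ligase CHIP, measured 297, 278 and 272 in the S pools and 249, 235 and 226 in the congenic pools. All congenic arrays lay below all S arrays, whereas for Aqp2 they lay above. The order of the arrays within the groups was not the reverse of that of Aqp2. The log2 fold change (congenic over S) was -0.24 (standard error 0.074, limma adjusted p = 0.710). Rab11a, of the same list, was also lower without overlap, at -0.058 (SE 0.048). Sipa1, a Rap GTPase regulator that binds Aqp2, was at -0.39 (SE 0.20), and its congenic array 3 was the lowest at 46.5 while the other 2 lay within or near the S range. Without that array it was at -0.13. Rab14, a small GTPase of endosomes, was at -0.080, and at -0.033 without S array 1.

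The transcription factors contained the most negative value of the 67, that of Elf5, a dim probe set. That rank depends on the scale: Elf5 was at -0.54 on log2(signal + 1) and at -0.22 on log2(signal + 64), where Tfcp2l1 was at -0.32. Of 14 tested, 6 were higher and 8 lower, with a median of -0.043, and 3 had an unadjusted limma p under 0.05, all lower in congenic pools. Tfcp2l1, a factor of collecting duct cells, measured 1528, 1395 and 1354 in the S pools and 1200, 1169 and 1013 in the congenic pools. Elf5, an ETS factor of principal cells, measured 53.8, 54.7 and 53.4 in the S pools and 28.6, 41.5 and 42.5 in the congenic pools. In neither did the groups overlap, and the log2 fold changes were -0.34 (SE 0.075, limma adjusted p = 0.654) and -0.40 (SE 0.14, limma adjusted p = 0.735). Both are also among the 10 principal cell markers. Nr1h3, the oxysterol receptor LXR alpha, was at -0.23 without overlap. Creb1, the factor that protein kinase A activates, was at 0.11 (0.063 without S array 1), and Gata3, whose family reads the GATA motif printed for Aqp2, at -0.11 (-0.050 without S array 2).

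The list of urea and osmolyte handling in the medulla lay mostly on the positive side. Of 8 tested, 6 were higher and 2 lower, with a median of 0.10, and 3 had an unadjusted limma p under 0.05, all higher. Slc14a1, the urea transporter of the vasa recta and red blood cells, measured 99.3, 99 and 97.7 in the S pools and 107, 119 and 134 in the congenic pools, without overlap, and had a log2 fold change of 0.24 (SE 0.097). Slc5a3, which takes up the osmolyte myo-inositol, was at 0.30 (SE 0.12), and at 0.15 without S array 1. The taurine transporter Slc6a6 was at 0.20 (SE 0.087), and at 0.30 without that array. Slc14a2, the urea transporter that vasopressin regulates in the inner medulla, was at 0.061 with overlapping groups, and at 0.0081 without congenic array 2. Akr1b1, aldose reductase, was at 0.11, and at -0.0069 without S array 2. The tonicity factor Nfat5 of the previous list was at 0.054, and at -0.013 without S array 1.

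**Figure D4:**
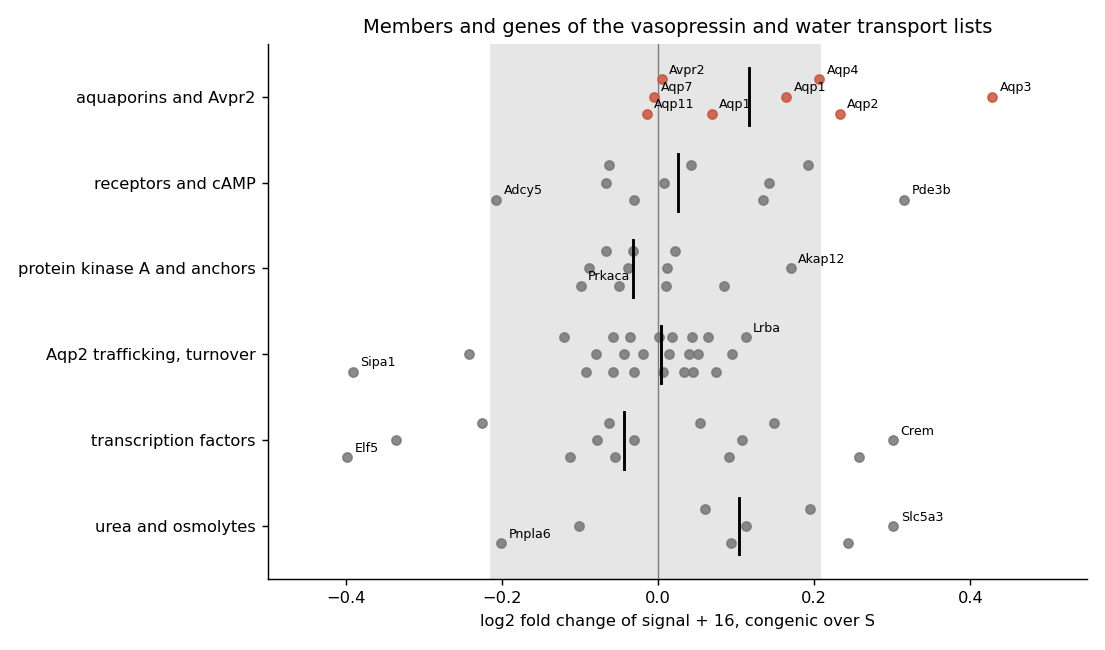
Log2 fold change of congenic over S (log2(signal + 16) scale) for the 8 member probe sets (red) and the tested genes of 5 lists (grey, 1 probe set a gene), with list medians as black lines. The shaded band runs from the 5th to the 95th percentile of all 10658 genes, -0.21 to 0.21, and Aqp2 and Aqp3 lie to its right; points are spread vertically only to keep them apart.

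Genes outside the pathway with the most similar pattern across the 6 arrays were found by correlation on log2(signal + 16). Over 10651 genes that are not members, those with the highest Pearson correlation with Aqp3 were Cenpw (r = 0.994), Fbl (0.994), Rgs16 (0.993), Cmc2 (0.990) and Rbm12b (0.989). Those with Aqp2 were Sumo2 (0.995), Aar2 (0.979), Stc2 (0.972), Adra2a (0.972) and Sympk (0.968). These r describe 6 arrays in 2 groups that share their pools, and among so many genes high values arise readily: 36 genes had r above 0.95 with Aqp3 and 16 with Aqp2. No gene was in both sets of 5.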

How the data were processed

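Kidney RNA pools of 3 S and 3 congenic samples were measured on 1 array each. The deposited values are linear intensities: each probe set has a single MAS5 signal, per the submitters' processing notes. The trimmed mean, without the top and bottom 2%, was 150 on every array, so the authors' values were already scaled, and a shift common to most transcripts cannot be seen. The MAS5 version, scaling target and detection calls are not given in the sources used here. Precision is limited by the number of arrays (median SE of a log2 fold change 0.10).

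From these, log2(signal + 16) was modelled in limma 3.58.1 under R 4.3.3 (lmFit, eBayes with trend, group as the only term, 2-sided), after leaving out 57 control probe sets and 12417 whose mean lay below the 40th percentile, with Benjamini-Hochberg adjustment over 18625 probe sets. The pseudocount understates changes of dim probe sets. The fit was also run on simulated arrays with planted changes larger than those of Aqp2 and Aqp3. It therefore cannot tell whether changes of their size would be found. Symbols came from the platform annotation, updated to RefSeq of GRCr8 (20764 of 20832 probe sets with 1 symbol matched, all 12 members among them), and genes of the lists were read by their brightest probe set. Every member probe set is named, and of each list the 3 genes with the smallest p. Further genes named from the lists (Adcy6, Rab11a, Creb1, Gata3, Nfat5, Slc14a2, Akr1b1 and the principal cell markers) were taken as background after their values were seen. The members and lists were chosen with earlier results of these data known. Alternatives were other pseudocounts, filters, normalizations, variance settings, array weights, a replicate block and leaving out each array.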

Additional observations from a re-analysis of the deposited data

How the results depend on the processing

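Under the alternatives run, the tested members gave 147 values, of which 138 had the same sign as before and 0 had an adjusted p under 0.05. The log2 fold change of Aqp3 ran from 0.31 to 0.65 and that of Aqp2 from 0.16 to 0.33, with limma adjusted p of 0.335 to 0.931 and 0.393 to 0.997. Their differences against the principal cell markers ran from 0.42 to 0.56 and from 0.20 to 0.40. The 9 values that changed sign belong to members near 0: Aqp11 was at 0.032 with array weights, Avpr2 at -0.080 with its probe sets averaged, and against congenic array 2 alone Aqp7 was at 0.031 and Aqp11 at 0.15. With 1 array left out, Aqp7 ran from -0.030 to 0.028, Aqp11 from -0.096 to 0.10 and Avpr2 from -0.14 to 0.10. The plain test took 0 members at an unadjusted p under 0.05, in place of 2. For the lists, 8 genes at an unadjusted p under 0.05 became 5 with the filter at the 60th percentile or the plain test, 3 against congenic array 2 alone, and 4 to 9 with 1 array left out, and their median ran from -0.0087 to 0.024 in the latter. With 1 array left out, the median of the transcription factors ran from -0.12 to 0.060, that of protein kinase A and its anchors from -0.049 to 0.016 and that of urea and osmolyte handling from 0.040 to 0.15. The median for receptors and cyclic AMP ran from 0.034 to 0.12, and that for Aqp2 trafficking and turnover from -0.018 to 0.0047. Over all probe sets 0 were called, except 1 without congenic replicate 2. Deviations from the group means correlated at 0.037, 0.014 and 0.021 between same-numbered arrays, and at -0.046 to 0.038 between differently numbered ones. Values this small cannot tell whether the replicate numbers mark rats housed together, and the labels do not say. With the replicate block, Aqp3 had an adjusted p of 0.393 and Aqp2 of 0.631, 0 members passed, and 3 members and 10 list genes had an unadjusted p under 0.05. Dim probe sets limit what can be said of Aqp6 and of the second Avpr2 probe set, and pools of whole kidney limit any statement on cells.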

Other observations

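Markers of the thin limb and inner medulla included 2 genes whose groups did not overlap, in opposite directions, and neither passed limma's adjusted threshold. Of all tested probe sets, 5.74% were higher in congenic pools without overlap, and the share that was lower was not counted. Cryab, a small heat shock protein abundant in the inner medulla, measured 2196, 2234 and 2268 in the S pools and 2585, 2822 and 2857 in the congenic pools, which put its log2 fold change at 0.30, with a standard error of 0.053 and a limma adjusted p = 0.341. Aldh1a3, a retinoic acid synthesis enzyme, measured 301, 248 and 281 in the S pools and 227, 165 and 210 in the congenic pools, which put its log2 fold change at -0.44, with a standard error of 0.12 and a limma adjusted p = 0.710. These 2 were singled out after their values were seen, from a list of 7 tested genes with 4 higher and 3 lower.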
